A study of Rattus norvegicus with 8 samples.

Results

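NNK, a nitrosamine of tobacco that resembles nicotine, binds nicotinic acetylcholine receptors and beta-adrenergic receptors. The 7 rat genes for such receptors described here were Chrna3, Chrna4, Chrna5, Chrna7, Chrnb2, Chrnb4 and Adrb1. A gene was followed through each mRNA probe whose RefSeq transcript belonged to it, and 6 of the 7 genes had a probe, each with 1 probe in 1 spot. Chrna5 had none, and its level was not analysed here. The array held 24684 probes, and those matched to a RefSeq transcript named 13903 genes.

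The RNA came from F344 rats at week 95 of an NNK lung cancer model and was hybridised to the Arraystar rat lncRNA array, which carries lncRNA and mRNA probes. There were 3 lung tumors, which were moderately differentiated adenocarcinomas, and 3 matched pieces of normal lung. Both came from NNK-treated rats, so neither lung group was free of NNK. The other 2 arrays held blood clots, 1 from the control group and 1 from the NNK treatment group. The labels do not say whether each clot came from a single rat.

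Nicotinic receptors are cation channels built of 5 subunits around a pore and opened by acetylcholine or nicotine. Chrna7 can form a channel by itself, Chrna4 and Chrnb2 form the main brain receptor, and Chrna3, Chrna5 and Chrnb4 form that of autonomic ganglia. Chrna3, Chrna5 and Chrnb4 lie side by side in the genome, and this cluster is known for its association with smoking and lung cancer in people. Airway epithelium is known to make acetylcholine of its own. Adrb1 is a receptor for noradrenaline and adrenaline that raises cyclic AMP through the G protein Gs and is best known from the heart.

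Some arrays of a group were close to copies of each other. Over lncRNA probes, which are printed in several spots, the 3 normal lung arrays differed from each other by 0.467 to 0.787 times the mean squared difference that the spread between spots would give, and lung tumor 2 differed from lung tumor 3 by 0.466 times. These arrays differed by less than the sampling noise and were therefore counted as 1 sample in means with an SD. Lung tumor 1 differed from lung tumors 2 and 3 by 3.03 and 3.36 times, and normal lung from tumor by 8.35 to 12.8 times. The headers gave 3 scan times, with the normal lungs and lung tumor 1 in the first, lung tumors 2 and 3 in the second, and both blood arrays in the third. The labels do not say whether arrays of a group share an extract, and a p-value below measures only the spread between these arrays, which may be technical. The surfactant genes that define type 2 alveolar cells fitted the labels, with 7 of 7 measured markers well above background on every lung array and summed signals of 956000 to 1290000 there against 3340 and 9510 in blood. The red blood cell markers showed the opposite order, with summed signals of 140000 to 232000 in lung and of 1460000 and 1440000 in blood.

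The scanner software scored a spot as well above background where its signal exceeded the local background with confidence, and its processed signal is the background-subtracted brightness in arbitrary units. By this score the 6 genes fell into 3 sets. Adrb1 and Chrnb4 were well above background on 8 of 8 arrays. Chrna7 was so on 4 of 6 lung arrays and on both blood arrays, and Chrna3 on 3 of 6 lung arrays and 1 blood array. Chrna4 and Chrnb2, the subunits of the main brain receptor, were so on 0 of 8 arrays.

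**Figure D1:**
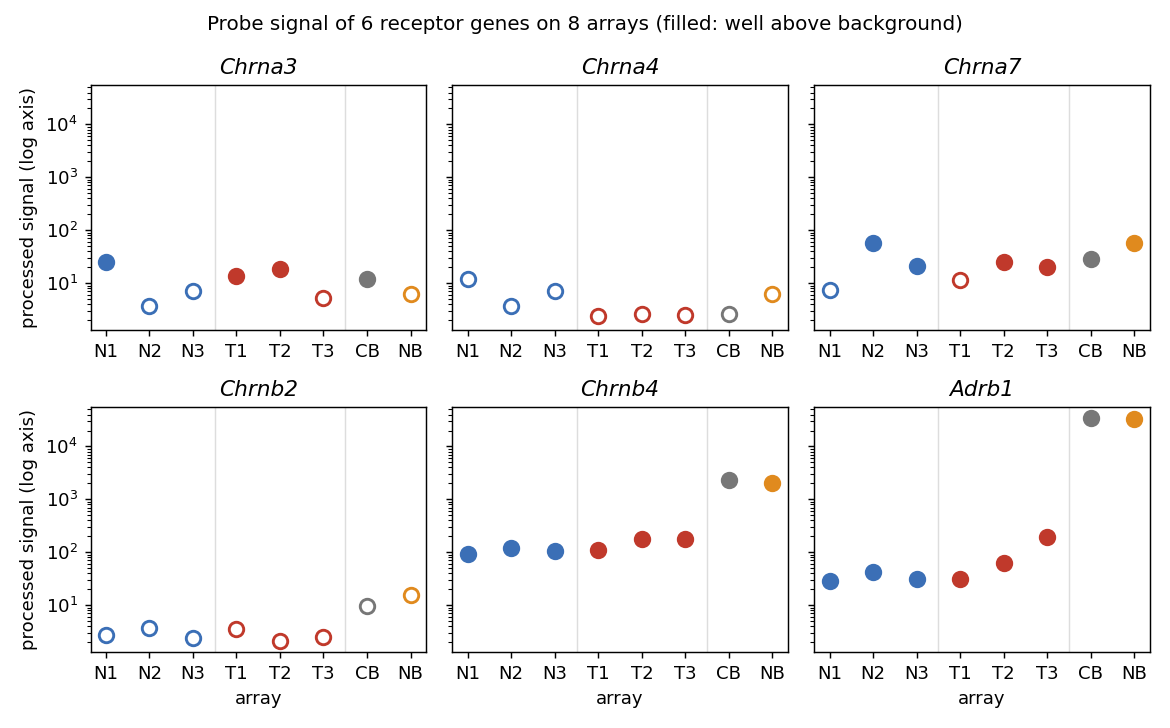
Processed signal (log axis, arbitrary units) of the probe of each of 6 receptor genes on the 8 arrays. N1 to N3 are normal lung, T1 to T3 lung tumor, CB control blood and NB NNK blood. Filled circles are well above background and open circles are not. Adrb1 and Chrnb4 were filled on every array and highest in both blood arrays, and Chrna4 and Chrnb2 were open on every array.

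The promoters of Adrb1 and Chrnb4 are shown because these 2 genes were measured on every array and were both far brighter in blood. Each line gives the 250 bases before the RefSeq transcript start in the assembly GRCr8, 5′ to 3′ on the gene's strand, at chr1:265776853-265777102 (plus strand) for Adrb1 and chr8:64333110-64333359 (minus strand) for Chrnb4. Capitals mark matches, on either strand, to GGGCGG (a GC box), CANNTG (an E-box), TGACG (the core of cyclic AMP response elements) or the GATA letters AGATAA or AGATAG or TGATAA or TGATAG.
Adrb1: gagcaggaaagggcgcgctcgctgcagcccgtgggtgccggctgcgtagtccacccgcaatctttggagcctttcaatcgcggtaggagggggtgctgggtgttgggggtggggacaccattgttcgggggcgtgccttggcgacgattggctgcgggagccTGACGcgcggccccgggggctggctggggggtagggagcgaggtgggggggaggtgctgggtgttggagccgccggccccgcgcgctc
Chrnb4: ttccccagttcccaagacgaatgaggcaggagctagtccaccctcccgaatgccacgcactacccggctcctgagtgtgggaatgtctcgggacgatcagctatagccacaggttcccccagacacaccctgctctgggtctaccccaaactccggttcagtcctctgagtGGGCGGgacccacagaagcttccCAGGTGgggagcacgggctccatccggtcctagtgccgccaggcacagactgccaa
The Adrb1 window held 1 TGACG and the Chrnb4 window 1 GGGCGG and 1 CANNTG. Neither held the GATA letters. Of 33469 rat promoters of the same length, 27% held GATA letters, 30.5% GGGCGG, 65.5% CANNTG and 18.2% TGACG. The G and C content was 72% in the Adrb1 window and 62% in that of Chrnb4. These are matches of letters only.

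To see whether these receptors differed between lung tumor and normal lung, their probes were tested with limma among all 12471 probes tested. A probe was called at a Benjamini-Hochberg adjusted p of at most 0.05 and a fold change of at least 2. Of the 7 genes, 4 passed the filter for the test and 0 of these 4 were called in either direction, while 13.5% of all probes tested were called higher in tumor and 15.5% lower. The tumor and normal arrays overlapped for each of the 4, but the share of all probes tested that overlapped was not counted. At an unadjusted p of at most 0.05 with the same fold change, 29.6% of all probes were called and still 0 of the 4. The median log2 fold change over all probes tested was 0.07.

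Adrb1 gave processed signals of 29.1, 42.0 and 30.6 in normal lung 1 to 3, and of 31.6, 63.9 and 197 in lung tumor 1 to 3. The normal lungs lay close together, lung tumor 1 lay among them and lung tumor 3 stood far above all others. On the normalized log2 scale the tumors averaged 0.94 above the normal lungs (SE 0.62, limma adjusted p = 0.226), with a 95% interval from -0.61 to 2.49. With lung tumors 2 and 3 counted once, the tumor level was 5.87 ± 1.12 (SD, n = 2), and the normal lungs, counted as 1 sample, averaged 5.19. Lung tumor 1, the tumor scanned with the normal lungs, was 0.11 below their mean, so that the difference within that scan was -0.11, and lung tumors 2 and 3 were 0.65 and 2.29 above it.

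The gap between lung tumors 2 and 3 was wider than that of nearly all other probes. Over 7848 mRNA probes well above background on both, the median absolute log2 difference between these 2 arrays was 0.08, while Adrb1 differed by 1.64. Only 33 of the 7848 probes (0.42%) differed by as much in either direction, and 11 of 2128 probes (0.517%) of like signal. Adrb1 had 1 spot, without an outlier mark on any array, so no second spot measured it.

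Chrnb4 was measured with less spread. Its processed signals were 93.3, 118 and 104 in normal lung 1 to 3, and 111, 179 and 181 in lung tumor 1 to 3. Lung tumors 2 and 3 lay above every normal lung and lung tumor 1 lay among them. On the normalized log2 scale the tumors averaged 0.29 above the normal lungs (SE 0.19, limma adjusted p = 0.221), with a 95% interval from -0.18 to 0.76. With near-identical arrays counted once the difference was 0.19 (SE 0.36, limma adjusted p = 0.721). With lung tumors 2 and 3 counted once, the tumor level was 7.04 ± 0.43 (SD, n = 2) against a normal lung average of 6.85. Within the scan shared with the normal lungs, the difference was -0.11. Without lung tumor 1, the log2 fold change of Chrnb4 was 0.49 and its adjusted p 0.00559 (limma), still under 2-fold, and since the remaining tumors shared no scan with the normal lungs, tumor and scan cannot be told apart in that value.

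Chrna7 was near the limit of detection in lung. It gave processed signals of 7.48, 58.2 and 20.9 in normal lung 1 to 3 and of 11.5, 24.6 and 20.3 in lung tumor 1 to 3. Normal lung 1 and lung tumor 1 were not well above background, and normal lung 2 was the highest. The tumors averaged 0.48 lower on the log2 scale (log2 fold change -0.48, SE 0.68, limma adjusted p = 0.553), with a 95% interval from -2.19 to 1.23. Without normal lung 2 the log2 fold change was 0.17, the opposite direction.

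Chrna3 gave processed signals of 25.4, 3.73 and 7.14 in normal lung 1 to 3, and of 13.5, 18.3 and 5.32 in lung tumor 1 to 3. Only normal lung 1 and lung tumors 1 and 2 were well above background. The log2 fold change was 0.16 (SE 1, limma adjusted p = 0.898), with a 95% interval from -2.47 to 2.79, so a difference of several fold was not detectable with these arrays.

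Chrna4 and Chrnb2 were not well above background anywhere and were not tested. The Chrna4 signals ran from 2.38 to 12.0 on the lung arrays, and those of Chrnb2 from 2.09 to 3.66. In blood, Chrna4 gave 2.65 and 6.25, and Chrnb2 gave 9.83 and 15.7, in the control and NNK samples. The lowest signal scored well above background was 9.19 to 16.9 on the lung arrays, 11.9 on control blood and 31.1 on NNK blood.

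**Figure D2:**
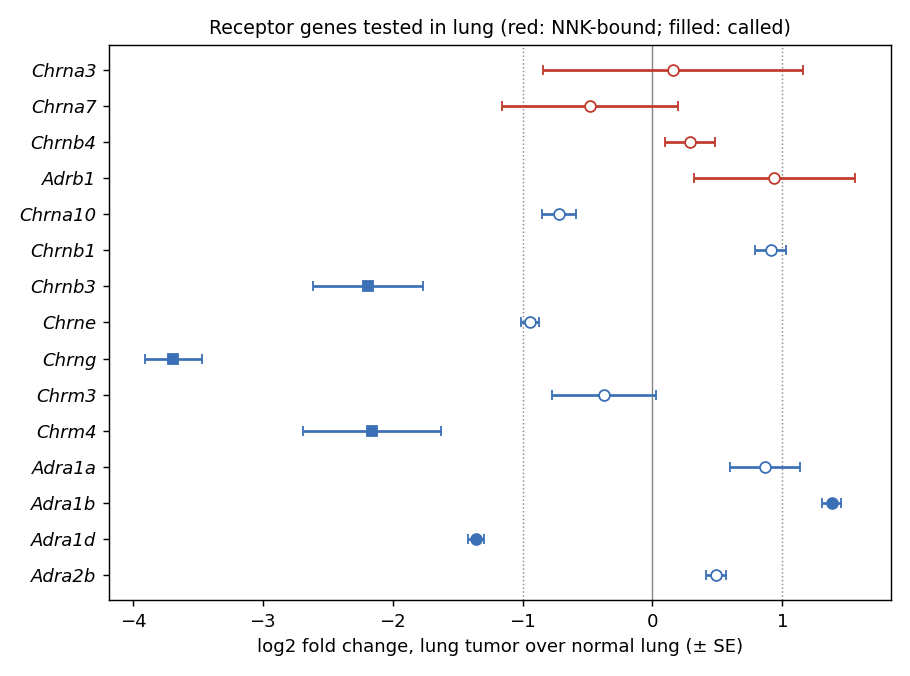
Log2 fold change of lung tumor over normal lung, with the limma SE as bars, for each receptor gene tested (3 arrays a group). Red circles are the NNK-bound receptors and blue circles are other nicotinic, muscarinic and adrenergic receptors. Filled symbols passed both thresholds. Squares mark genes with no tumor value well above background in the fit, whose fitted change is no measured size. Dotted lines mark a 2-fold change. All 4 red circles are open, and the filled circles are Adra1b at 1.38 and Adra1d at -1.36.

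The blood arrays, compared to see how NNK treatment went with blood RNA, had 1 array a group and allowed no test. Adrb1 gave 34300 in control blood and 33300 in NNK blood, a log2 difference of -0.16 after normalization. Chrnb4 gave 2300 and 2000, a log2 difference of -0.57. Chrna7 gave 29.0 and 57.0, which after normalization was a log2 difference of -0.38, the opposite direction, as the median probe gave 11.8 on the control array and 32.0 on the NNK array. None of these 3 differed by 2-fold in this scaling, but with a 75th percentile shift of each array the log2 differences were -1.15 for Adrb1, -1.31 for Chrnb4 and -0.14 for Chrna7. Chrna3 gave 11.9 and 6.25, and its normalized values differed by -2.34 on the log2 scale, but NNK blood was not well above background and the bound on the log2 difference was only 0.05, which is no measured difference. Of the 4 compared, only Chrna3 was past 2-fold by its normalized values, beside 19.1% of all probes that were lower in NNK blood by 2-fold and 23.1% that were higher.

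Adrb1 and Chrnb4 were much brighter in blood than in lung. Normalized over all 8 arrays, Adrb1 averaged 16.41 in blood and 5.01 in normal lung on the log2 scale, a difference of 11.4. Without normalization its blood signal was 1010-fold that of normal lung. The lower blood array lay 11.21 above the highest normal lung array. Among 10891 mRNA probes compared, Adrb1 had the rank 22 by this difference, and only 0.202% of them had one as large. Chrnb4 averaged 13.72 in blood and 6.51 in normal lung, a log2 difference of 7.21, or 20.5-fold without normalization, and 4.39% of mRNA probes had a difference as large. For both genes every blood array lay above every lung array, tumors included.

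The other genes compared lay closer to lung. Chrna7 averaged 6.3 in blood and 4.38 in normal lung, with a gap of 0.39 between the lower blood array and the highest normal lung array, and Chrna3 averaged 3.14 and 3.09 with overlapping arrays. In all, 2 of the 4 genes compared were at least 2-fold higher on both blood arrays than on every normal lung array, where 25.0% of mRNA probes were, and 46.8% were that much lower. The median difference over all mRNA probes was -1.51. Both blood arrays were in a scan of their own, so tissue and scan cannot be told apart. In bulk samples such as these, fewer cells of a type and less RNA per cell cannot be told apart either.

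**Figure D3:**
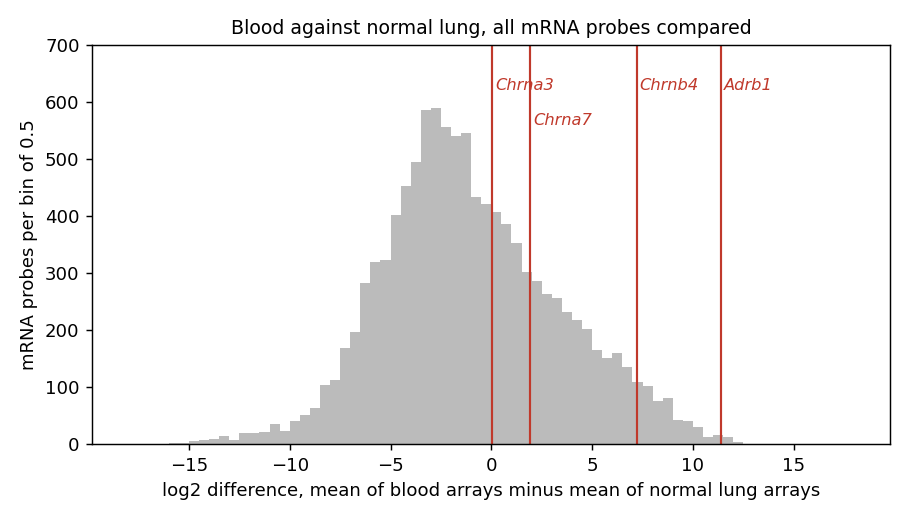
Number of mRNA probes by the log2 difference of the blood average (2 arrays) over the normal lung average (3 arrays), for 10891 probes in bins of 0.5. Red lines mark the 4 receptor genes compared. Adrb1 at 11.4 lies at the far right edge and Chrnb4 at 7.21 in the right tail, while Chrna7 at 1.91 and Chrna3 at 0.04 lie in the body.

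Blood RNA is rich in transcripts of red blood cells, so the red blood cell genes are given beside these 2 receptors. Of the 5 measured, 5 were at least 2-fold higher on both blood arrays than on every normal lung array. Slc4a1, the anion exchanger of the red cell membrane, gave 202, 228 and 203 in normal lung and 35800 and 21900 in control and NNK blood. Alas2, the first enzyme of haem synthesis in red cells, gave 19900 to 21900 in normal lung, 2220 to 2320 in tumor, and 578000 and 660000 in blood. In lung, 4 of the 5 were called lower in tumor, with log2 fold changes of -3.09 for Alas2 (adjusted p = 3.58e-06) and -2.61 for Slc4a1 (adjusted p = 0.000108, both limma), while Adrb1 and Chrnb4 lay at most 0.11 below the normal lung mean in any tumor. Between lung tumors 2 and 3, which differed in Adrb1, Alas2 gave 2220 and 2320 and Slc4a1 gave 51 and 34.8. The part of red blood cells in the receptor signals was not tested.

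**Figure D4:**
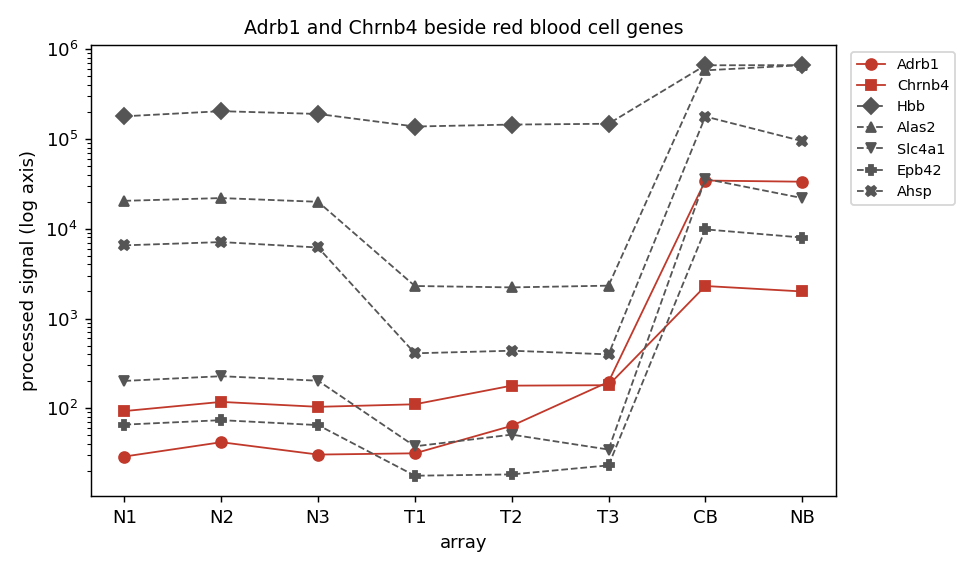
Processed signal (log axis, arbitrary units) of Adrb1 and Chrnb4 (red) and of 5 red blood cell genes (grey, dashed) on the 8 arrays, named as N1 to N3 for normal lung, T1 to T3 for lung tumor, CB for control blood and NB for NNK blood. Lines only join the points of a gene. All 7 genes were highest in blood, and 4 of the 5 grey genes were called lower in tumor than in normal lung while neither red gene was.

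The mRNA probes most like Adrb1 and Chrnb4 over all 8 arrays were looked up among 4358 probes after the values had been seen. Likeness was the root mean squared difference between the centred log2 signals of 2 genes, which is mostly set by the step from lung to blood. Closest to Adrb1 were Krt88, a keratin, at 0.41, Sardh, a mitochondrial enzyme that breaks down sarcosine, at 0.42 and Cldn34d, of the claudin family, at 0.43. Next came Or1e16d at 0.56 and Tyr at 0.6. Whether the probes of Adrb1 and these genes measured the named transcripts in blood was not tested. Closest to Chrnb4 were Gfi1b, a transcription factor of red cell and platelet precursors, at 0.14, Lcn10, a lipocalin, at 0.16 and Trim10, a gene of red cell precursors, at 0.16. Hcn3 and Slc22a13 followed, both at 0.18.

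The genes around these receptors were followed in 9 lists of 143 genes in all, of which 129 were on the array and 81 were tested. In lung tumor 14 of the 81 were called higher and 16 lower, beside 13.5% and 15.5% of all probes tested. Those shares stand beside the count of each list below too. For the 9 lists together, counting the near-identical arrays once left 6 higher and 6 lower. With the normexp background correction 8 were called higher, and Slc5a7, Bche, Slc18a1, Ly6g6e, Pde4d, Grk2, Chrnb3, Chrm4, Tmem35a, Adcy5 and Src, all named below, fell under 2-fold.

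Of the 10 other nicotinic subunits, all were on the array, 5 were tested, 2 were called lower in tumor and 0 higher, with a median log2 fold change of -0.94. The 2 that fell are known from muscle and brain. Chrng, the fetal muscle subunit, gave 71.8, 88.7 and 71.1 in normal lung and 7.25, 8.85 and 6.86 in tumor, where it was not well above background. Its groups did not overlap and in the main processing it was at least 9.41-fold lower in tumor (limma adjusted p = 6.91e-05). With normexp its log2 fold change was -1.06. Chrnb3 gave 35.9, 23.4 and 19.3 against 8.06, 5.24 and 8.18, and was at least 3.04-fold lower (limma adjusted p = 0.00623). With the scan as a block its adjusted p was 0.0526, and with near-identical arrays counted once 0.111. Chrna10, Chrnb1 and Chrne had adjusted p-values of 0.00468, 0.00164 and 0.000148 (limma) but changed less than 2-fold, with log2 fold changes of -0.72, 0.91 and -0.94. Chrne, the adult muscle subunit, gave 1850 to 2080 in normal lung and 964 to 1080 in tumor. In blood Chrna6 gave 87.6 and 424 against 2.47 to 9.87 in normal lung.

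Of the 14 chaperones and Ly6 proteins that assemble or tune nicotinic receptors, 12 were on the array, 10 were tested, 3 were called higher and 3 lower, with a median of -0.83. Slurp1 and Slurp2 are secreted Ly6 proteins that act on nicotinic receptors of epithelia. Slurp1 gave 2.63, 3.57 and 2.78 in normal lung, where it was not well above background, and 32.7, 181 and 191 in tumor, at least 6.85-fold higher (limma adjusted p = 0.00138, or 0.0962 with near-identical arrays counted once). Among the alternatives its log2 fold change went as low as 1.37. Slurp2 gave 20.1, 39.1 and 15.3 against 207, 208 and 201, a log2 fold change of 2.92 (SE 0.29, limma adjusted p = 0.000482). Tumor and normal arrays stood apart for both. Ly6g6e rose by 1.04 (SE 0.32, adjusted p = 0.0343) and was not called with near-identical arrays counted once (0.197). Among the falls, Lypd1, an inhibitor of Chrna4 with Chrnb2 receptors, had a log2 fold change of -2.3 (SE 0.12, limma adjusted p = 4.44e-05). Tmem35a, the chaperone NACHO that lets Chrna7 channels assemble, had one of -1.76 (SE 0.15, limma adjusted p = 0.000281, or 0.0628 with near-identical arrays counted once).

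Of the 14 genes that make, carry or break down acetylcholine and choline, 12 were on the array, 8 were tested and 4 were called higher in tumor and 0 lower, with a median of 1.43. Slc5a7, the high-affinity choline transporter, gave 2.74, 3.6 and 2.39 in normal lung, not well above background, and 86.5, 37.5 and 34.9 in tumor. It was at least 2.99-fold higher (limma adjusted p = 0.000612, or 0.0622 with near-identical arrays counted once). Slc44a4, a choline transporter-like protein, gave 4250 to 4670 in normal lung and 16900 to 18900 in tumor (log2 fold change 2.14, SE 0.069, limma adjusted p = 9.49e-06). Bche, the butyrylcholinesterase that splits choline esters, gave 3.45 to 5.34 in normal lung, not well above background, and 32.9 to 51.7 in tumor, at least 2.8-fold higher (limma adjusted p = 0.00132). The Bche call was lost in 2 of the 19 alternatives fitted for it, 1 of them normexp. Slc18a3, the vesicular acetylcholine transporter, had a log2 fold change of -1.4 and was not called (limma adjusted p = 0.058), but was called with the replicate number as a block (adjusted p = 0.0105). Of the 5 muscarinic receptors, 2 were tested and Chrm4 was called lower (limma adjusted p = 0.0217). That call rests on leaving out an outlier-marked spot on lung tumor 3 (signal 164). Lung tumors 1 and 2, at 5.73 and 4.96, were not well above background, so no size is given. With the spot kept the log2 fold change was -0.54 and the adjusted p 0.757.

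Of the 8 other adrenergic receptors, 7 were on the array, 4 were tested, 1 was called higher and 1 lower, with a median of 0.68. Adra1b, which signals through Gq, gave 2740 to 3090 in normal lung and 6530 to 7930 in tumor (log2 fold change 1.38, SE 0.074, limma adjusted p = 4.52e-05, or 0.0504 with near-identical arrays counted once). Adra1d, of the same class, gave 478 to 528 against 222 to 230 (log2 fold change -1.36, SE 0.061, limma adjusted p = 2.53e-05). Adra2b gave 47800 and 61700 in control and NNK blood against 3450 to 3760 in normal lung, so Adrb1 was not the only adrenergic receptor that was brighter in blood.

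Of the 11 genes that make, store or clear catecholamines, 9 were on the array, 8 were tested, 1 was called higher and 1 lower, with a median of -0.66. Slc6a2, the noradrenaline transporter, gave 6730, 7320 and 7100 in normal lung and 491, 460 and 457 in tumor (log2 fold change -3.92, SE 0.064, limma adjusted p = 3.52e-06). Lung endothelium is known to take up noradrenaline, and 3 of 3 endothelial markers tested were called lower too, with summed signals of 183000 to 191000 in normal lung and 33100 to 35000 in tumor. Their part in the fall was not tested. Slc18a1, a vesicular monoamine transporter, rose by 1.05 (SE 0.22, limma adjusted p = 0.00847, or 0.0815 with near-identical arrays counted once). Th, the first enzyme of catecholamine synthesis, gave 15.4 to 85.9 in normal lung and 3170 and 4800 in blood.

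Of the 46 genes of beta-adrenergic and cyclic AMP signalling, 43 were on the array, 26 were tested, 3 were called higher and 6 lower, with a median of -0.46. Among the falls, Akap5, an anchor that holds protein kinase A at beta-adrenergic receptors, had a log2 fold change of -2.33 (SE 0.052, limma adjusted p = 4.83e-06). Adcy2, an adenylyl cyclase, gave 5950 to 6690 in normal lung and 1280 to 1440 in tumor (log2 fold change -2.12, SE 0.061, limma adjusted p = 7.48e-06). Adcy5, another cyclase, had one of -1.48 (SE 0.27, limma adjusted p = 0.00486) and was lost with near-identical arrays counted once (0.156). Among the rises, Grk2, which phosphorylates active beta-adrenergic receptors, had a log2 fold change of 1.33 (adjusted p = 0.00138), and Prkar1b, a regulatory subunit of protein kinase A, one of 1.15 (adjusted p = 0.000475), with Grk2 well above background on 1 of 3 normal lung arrays. Pde4d, which degrades cyclic AMP, gave 9.05, 6.91 and 5.46 in normal lung, not well above background, and 26.7, 18.3 and 25.6 in tumor. It was at least 1.45-fold higher (limma adjusted p = 0.0112). The calls of Grk2, Pde4d and Prkar1b were lost with near-identical arrays counted once, at adjusted p-values of 0.0595, 0.111 and 0.0635 (limma). Nr4a1, an early response gene of cyclic AMP, was not tested for outlier marks, and with marked spots kept its log2 fold change was -2.55 (SE 0.067, limma adjusted p = 4.89e-06). In blood 3 of 30 genes of this list were at least 2-fold above normal lung and 17 at least 2-fold below it. Over all mRNA probes compared, 25.0% were above it by that rule and 46.8% below it.

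Of the 30 kinases and effectors known to act downstream of nicotinic receptors, 26 were on the array, 15 were tested, 2 were called higher and 2 lower, with a median of 0.01. Ccnd1, the cyclin of entry into the cell cycle, gave 1410, 1680 and 1440 in normal lung and 7150, 8110 and 9250 in tumor (log2 fold change 2.51, SE 0.13, limma adjusted p = 3.74e-05). Camk2d and Camk2b, subunits of a calcium-activated kinase, moved apart, with log2 fold changes of 1.56 and -1.29 (limma adjusted p = 0.00189 and 5.11e-05). The adjusted p of Camk2b was 0.0536 with near-identical arrays counted once. Camk2d also lost its call in 1 of the 19 alternatives fitted for it, though its log2 fold change was at least 1.25 in each. Src, a tyrosine kinase, had a log2 fold change of -1.28 (limma adjusted p = 0.00682, 0.0658 with the scan as a block and 0.0737 with near-identical arrays counted once). Of the 5 neighbours of the Chrna5, Chrna3 and Chrnb4 cluster, 3 were tested and 0 were called.

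Nerve and neuroendocrine cells are known to carry nicotinic receptors, so their markers are given too. Of 8 neuroendocrine markers tested, 1 was called higher and 3 lower in tumor, with summed signals of 2420 to 3220 in normal lung and 6380 to 8520 in tumor. That rise lay in Uchl1, an enzyme of the ubiquitin system, which gave 713 to 952 against 5300 to 7010. Without it the sums were 1710 to 2270 in normal lung and 1080 to 1510 in tumor. Of 7 nerve markers tested, 1 was called higher and 3 lower, with summed signals of 6160 to 7240 against 2380 to 2750. Their part in the receptor values was not tested.

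**Figure D5:**
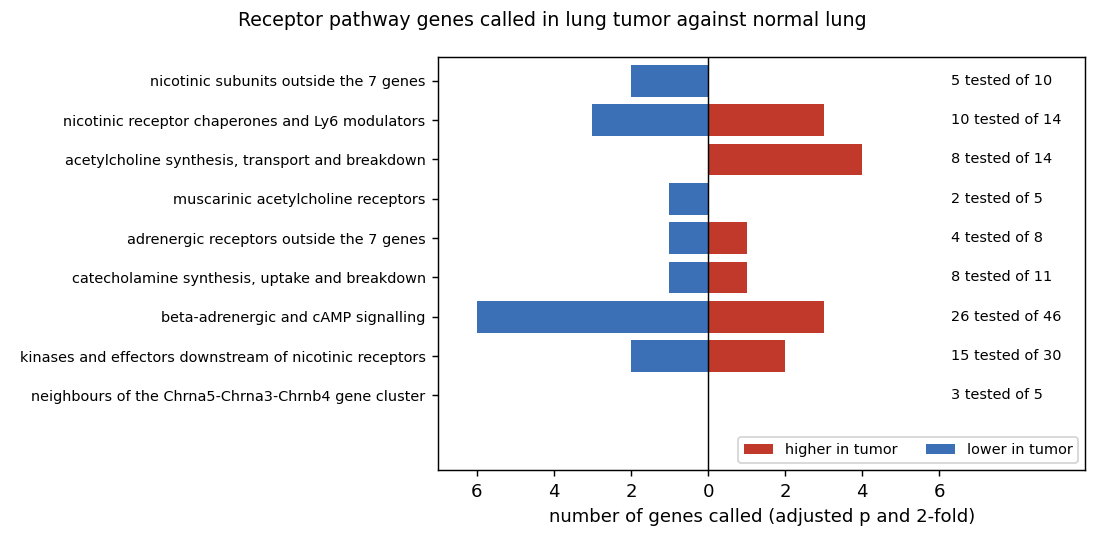
Number of genes called higher (red, to the right) or lower (blue, to the left) in lung tumor than in normal lung in each of the 9 lists, at an adjusted p of at most 0.05 and a fold change of at least 2, with the genes tested of the genes listed at the right. Acetylcholine genes were called only to the right, 4 of 8 tested, and the signalling list had 3 to the right and 6 to the left. Over all probes tested, 13.5% were called higher and 15.5% lower.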

How the data were processed

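Total RNA of 8 samples was measured on 1-colour Agilent arrays, 1 array a sample. For each array the authors deposited spot intensities made with Agilent Feature Extraction 10.5.1.1, per the file headers background-subtracted and not normalized between arrays. They also deposited a table of log2 values, quantile-normalized by the authors over all 8 arrays, used here as an alternative. The NNK blood sample was taken as blood by its title, source and tissue, although its description repeated that of a lung tumor.

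Processed signals of 42136 spots were taken to log2 and quantile-normalized in R 4.3.3, separately for lung (6 arrays) and blood (2 arrays), and over all 8 arrays to set blood beside lung. Spots marked as outliers were dropped, and 0 were saturated. Probes well above background on at least 3 lung arrays, with at least 2 values a group, were tested with lmFit and eBayes of limma 3.58.1, and p-values were adjusted over all 12471 probes. A group not above background gives a bound, from the lowest signal well above background on each of its arrays, which holds for the main processing only. Of 15323 mRNA probes, 14274 (93.2%) matched a RefSeq transcript of the assembly GRCr8. The number of arrays and of spots limits the precision. The fit was tested on simulated data.

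The authors describe the lung samples as matched. The titles give only numbers, so same-numbered lung samples were taken as the pairs. Their deviations from the group means correlated at 0.143, -0.041 and 0.16 over 11359 probes, and the number as a block was an alternative.

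The genes, lists and rules were chosen with earlier results of these data known. The 7 receptor genes and every called gene of the receptor, acetylcholine and catecholamine lists are named, apart from results that are not reported here, and of each other list the 3 largest rises and falls among called genes whose groups do not overlap. Genes outside this rule (Nr4a1, Adra2b, Chrna6, Chrna10, Chrnb1, Chrne, Slc18a3, Th and the likeness results) were chosen after their values were seen. Figures were drawn with matplotlib 3.10.9.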

Additional observations from a re-analysis of the deposited data

How the results depend on the processing

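No receptor gene bound by NNK was called in lung under any of 21 alternatives. With the replicate block the adjusted p-values were 0.217 for Adrb1, 0.117 for Chrnb4, 0.39 for Chrna7 and 0.886 for Chrna3, and of the pathway genes it added calls of Slc18a3 (0.0105) and Ric3 (0.0345), both lower, and could not be fitted for 9, among them Chrm4 and Agrn. With the scan as a block, Adrb1 and Chrnb4 both came to -0.11 on the log2 scale, which then rests on lung tumor 1. Chrna3 came to -0.03 with normexp and -0.01 with a floor of 5. Leaving out each array moved Chrna3 from -0.69 to 1.05, Chrna7 from -1.15 to 0.17, Chrnb4 from 0.19 to 0.49 and Adrb1 from 0.27 to 1.47. Of the pathway genes, 14 higher and 16 lower in the main test, normexp called 8 higher, the methods' paired t-test 9 higher, and counting near-identical arrays once 6 higher and 6 lower, while without a limit on the fold 33 were lower. Over all probes, 1683 higher and 1929 lower, these counts were 967 and 1256 with normexp, 1090 higher with the paired form, 778 and 976 with arrays counted once, and 4205 and 3918 without a limit on the fold. In blood, 1 receptor gene was 2-fold lower after NNK in the main setting, 3 with a 75th percentile shift, and 0 with normexp or a filter on both arrays, and Chrna3 was then at -0.34 with normexp. The blood over normal lung difference of Adrb1 was 13.13 with the 75th percentile shift, 9.98 unnormalized, 9.84 with normexp, 11.48 in the authors' table and 10.56 against tumors. For Chrnb4 it was 4.35 unnormalized and 6.42 with normexp. For Chrna7 it was 4.11, 0.96, 0.6, 2.52 and 2.35 in the order given for Adrb1, and for Chrna3 3.12 with the 75th percentile shift. The causes of these moves were not tested. The alternatives for blood over lung and for the pathway genes were chosen after seeing the data.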

Other observations

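Chrna7, Chrna3, Chrna4 and Chrnb2 were at or near the lowest signal well above background in lung on most lung arrays, so that a fall in them was not detectable there. Each receptor gene rests on 1 spot an array. The tumor arrays carried more outlier marks, 15.9% to 25.3% of detected spots against 4.92% to 8.62% in normal lung, and 81 of the 129 pathway genes on the array were tested.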
